A study of Homo sapiens with 16 samples.

Results

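Integrins are paired receptors, each built from an alpha and a beta chain, that hold leukocytes to other cells and to matrix once signals inside the cell have switched them to a binding shape. This account covers 9 genes of leukocyte adhesion, selected by symbol among the 58051 gene identifiers of the deposited table: the integrin chains ITGAL, ITGB2, ITGA4, ITGB1 and ITGB7, the ligands ICAM1, ICAM3 and CD58, and the hyaluronan receptor CD44. ITGAL and ITGB2 form the integrin LFA-1, whose ligands include ICAM1 and ICAM3. ITGA4 joins ITGB1 in a receptor for VCAM1 and fibronectin, or ITGB7 in the receptor that takes lymphocytes to gut vessels through MADCAM1. CD58 is the ligand of CD2 on T cells, and CD44 binds hyaluronan in the matrix. In B cells immortalised by Epstein-Barr virus, raised surface LFA-1, ICAM1 and CD58 and growth in clumps are long known.

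The cells were P493-6, an established human B cell line immortalised by that virus, which carries a MYC transgene that doxycycline switches off and a form of the viral protein EBNA2 that works only with oestrogen. Cells of the high MYC groups grew in DMEM with serum and neither additive. Cells of the medium MYC groups were given 0.1 µg/mL doxycycline together with 1 µM β-estradiol, starting 24 h before treatment. Each MYC level was then treated with 100 nM IMP1088, which inhibits the N-myristoyltransferases NMT1 and NMT2, the enzymes that attach myristate to the N-terminal glycine of proteins, or with DMSO as control. The titles give 24 h as the time and number 4 libraries in each of the 4 groups. MYC level, doxycycline and estradiol changed together, so their effects cannot be told apart. The labels do not say whether libraries of a group came from separate cultures, and all come from 1 line, so p-values here measure only the spread between these libraries. In bulk RNA of this kind, fewer cells with a transcript and less of it per cell cannot be told apart.

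Reads assigned to genes, recovered from the deposited values, summed to between 8755296 and 13858534 in a library. Values below are the deposited normalized counts (reads divided by a size factor of the library, which ran from 0.858 to 1.33), and 3 reads correspond to a value between 2.26 and 3.50. That floor covers counting error only, since the reads carry no molecular identifiers, whereas the 95% intervals of changes below are limma's and rest on the spread between libraries. MYC averaged 31649 in high MYC controls and 47542 with the inhibitor there, against 958.6 and 1382 at medium MYC. NMT1 lay between 1454 and 1729 in the 4 group means, and NMT2 between 2.33 and 21.7. All 8 B cell markers were present, and their summed level was 40451 to 42835 and 34080 to 35250 (control, inhibitor) at high MYC and 62194 to 66115 and 56164 to 57808 at medium MYC. Each list of markers of other cell types had genes at or near 0 and genes with reads. Of the epithelial genes KRT18 was at 0 in every library, while EPCAM averaged 62.1 and 70.6 (control, inhibitor) at high MYC and CDH1 went from 0.188 in high MYC to 55.4 in medium MYC controls and 80.6 with the inhibitor there. Endothelial CDH5 and the NK cell gene NCR1 were at 0, but the stromal genes PDGFRB and COL1A1 averaged 66.4 to 435.9 and 7.09 to 205.8, and NKG7 of NK cells up to 23.2. CD8A and the monocyte marker S100A8 had group means no higher than 0.252 and 0.752, beside 14.5 to 132 for the T cell receptor gene TRAC and 47.8 to 67.7 for LYZ. Summed over each list, the level at high and at medium MYC was 68.1 to 134 and 499 to 650 for the endothelial or stromal, 55.1 to 106 and 155 to 243 for the T cell, 56.5 to 86.3 and 60.5 to 112 for the epithelial, 41.4 to 64.8 and 51.7 to 84.4 for the monocyte and 0 to 5.52 and 11.5 to 26.5 for the NK cell genes. Their part in the differences below was not tested.

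Promoter letters are given mainly for the members whose level moved most with MYC and for ITGB7. They were read from the RefSeq promoter table on GRCh38.p14. It gave 10 windows of 250 bases before a start for 7 of the 9 members (not ITGAL and ITGB2). The RefSeq starts differ from the GENCODE 29 gene ends given below, so a window before a RefSeq start can lie inside a gene: GENCODE exons hold all 250 bases of the ICAM1 and CD44 windows, 184 of the ITGA4, 56 of the ITGB7 and 13 of the CD58 window. A motif is shown in capitals within its neighbouring bases, and both strands were searched. The ICAM1 window, on the plus strand of chromosome 19, held the letters GGANNTTCC (the NF-kB core, found in 3.84% of 35116 windows of this length) beginning 186 bases before the RefSeq start, and TATAAA (the TATA box, in 10.7%) 30 bases before it, both inside exons. The CD58 window, on the minus strand of chromosome 1, held GAGGAA (the PU.1 core, in 23.6%) and 3 copies of GGGCGG (the GC box, in 42.6%), of which 2 share bases. The ITGB7 window, on the minus strand of chromosome 12, held the PU.1 core on its opposite strand, read here as TTCCTC, 28 bases before the RefSeq start and inside an exon. The PU.1 core was also in a window of ITGB1, 184 bases before its start, and in a window of ICAM3. TATAAA was also in the other ITGB1 window, outside exons, 100 bases before its start and, on the opposite strand, 102 and 35 bases before it. GC boxes were also in the ICAM1 window, 206 and 59 bases before its start on the opposite strand, and in windows of ITGB1 and ICAM3.
ICAM1 NF-kB core, chr19:10270924-10270952: gctttagcttGGAAATTCCggagctgaag
ICAM1 TATA box, chr19:10271080-10271105: tggctagcgcTATAAAggatcacgcg
CD58, 120 to 21 bases before the start, chr1:116571047-116571146: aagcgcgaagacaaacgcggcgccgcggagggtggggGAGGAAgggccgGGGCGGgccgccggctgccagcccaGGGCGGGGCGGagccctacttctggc
ITGB7 PU.1 core, chr12:53207264-53207289: ggagtgtcacTTCCTCctctgccgtc
The CD44 window held 2 GC boxes and none of the other letters searched, and the ITGA4 window held none of the 6. The E-box CACGTG, the letters that MYC is known to bind (in 6.34% of windows), was in no member's window, and TGGGAA, the RBPJ core (in 20.8%), was in 1 window, of ICAM3. A match is a description of these letters and not a measured binding site.

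With the inhibitor, the 2 chains of LFA-1 fell furthest, ITGB7 fell less, ITGA4 fell slightly and ITGB1 was not called. ICAM1 and CD44 rose slightly at high MYC, and CD44 also at medium MYC. Of the 8 members with a mean of at least 10, which limma tested together with all other such genes, 2 were higher and 4 lower at high MYC (adjusted p under 0.05, Benjamini-Hochberg over 13765 genes), where 26.8% of all tested genes were called, 10.5% higher and 16.3% lower. At medium MYC 1 was higher and 4 were lower, against 26.3% of all tested genes, 11.7% higher and 14.6% lower. The median change of the 8 was -0.32 and -0.11 on the log2 scale at high and medium MYC, beside -0.02 and -0.01 over all tested genes. The balance of calls over all genes turned on the scaling. At high MYC, 1442 were higher and 2247 lower, but 1727 and 1770 under quantile normalization. At medium MYC, 1606 were higher and 2012 lower, but 1962 and 1659 with equal library totals and 1963 and 1876 under quantile normalization.

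**Figure D1:**
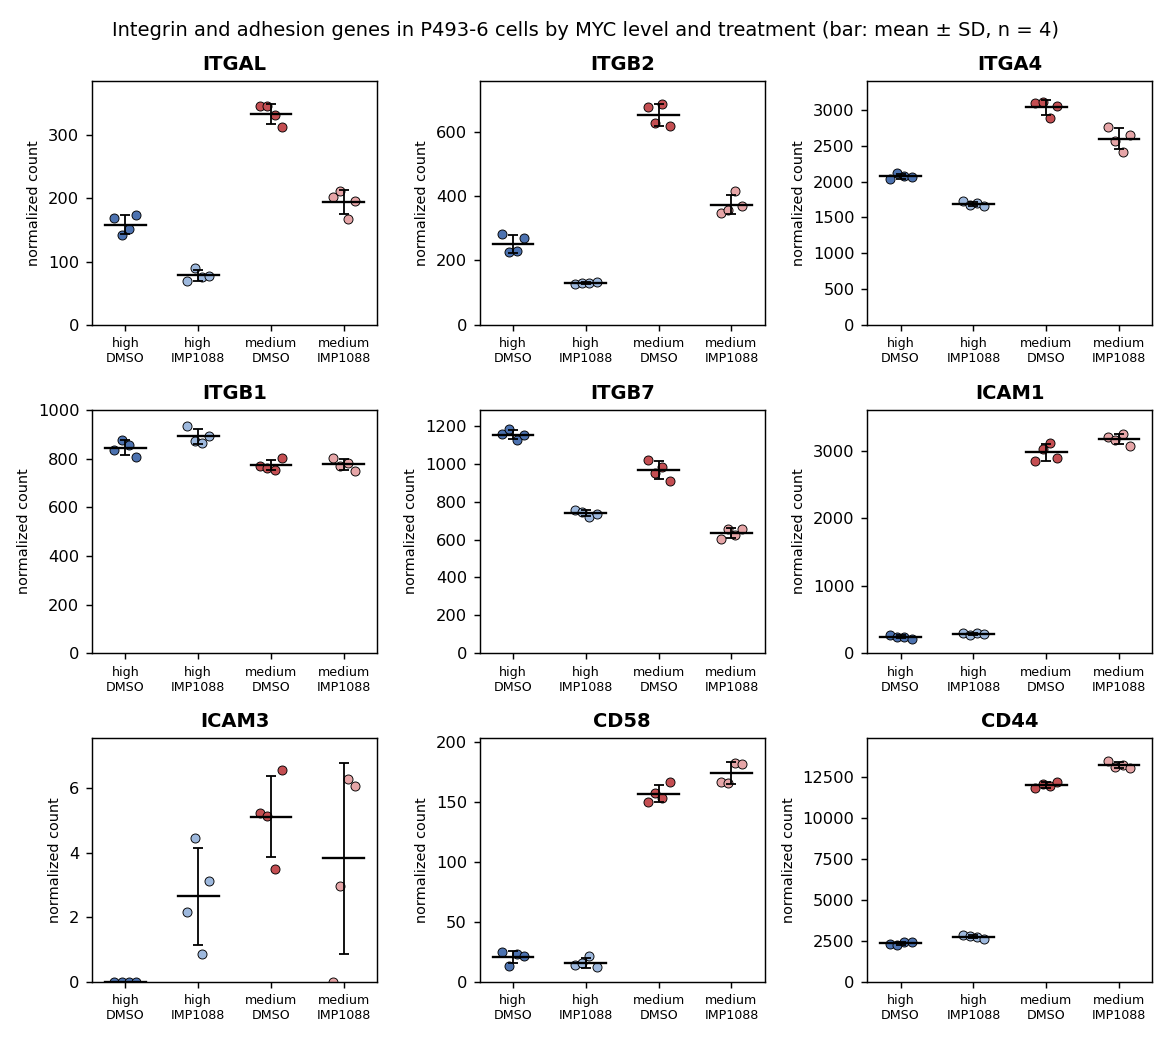
Normalized count (vertical axis, linear and from 0) of each of the 9 members in the 16 libraries, by MYC level and treatment; points are libraries and bars show the mean ± SD of 4. ITGAL, ITGB2, ITGA4 and ITGB7 libraries with IMP1088 lie below all their controls at both MYC levels, and ICAM1, CD58 and CD44 are higher in every medium MYC library.

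ITGAL, the alpha chain of LFA-1 (ENSG00000005844, chromosome 16, 30472658 to 30523185 on GRCh38), had normalized counts of 168.7, 141.5, 151.2 and 173.2 in the high MYC controls and 68.8, 89.8, 75.9 and 78.0 with the inhibitor. At medium MYC the controls gave 346.3, 345.9, 331.7 and 312.7 and the inhibitor libraries 202.7, 211.6, 168.2 and 196.6. Every inhibitor library was below every control at its MYC level; over all tested genes, groups did not overlap in either direction for 26.7% at high and 27.9% at medium MYC. The change on the log2(value + 1) scale was -1.01 (SE 0.0922, adjusted p = 3.7e-08, limma) at high MYC, where 0.734% of all tested genes had a lower change, and -0.78 (SE 0.0922, adjusted p = 1.3e-06) at medium MYC, where 1.11% did. The responses differed by -0.23 (95% interval -0.51 to 0.04), which was not called (adjusted p = 0.317).

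ITGB2, the beta chain of LFA-1 and of the other leukocyte beta2 integrins (ENSG00000160255, chromosome 21, 44885953 to 44931989), had 281.7, 226.9, 228.5 and 270.5 in the high MYC controls and 128, 128.7, 130 and 134.1 with the inhibitor. At medium MYC it had 675.9, 625.8, 686.1 and 618.8 in controls and 347.2, 357.6, 414.6 and 370.1 with the inhibitor. The inhibitor libraries lay below all controls at both levels, and at high MYC they spread less (SD 2.74) than the controls did (SD 28.3). ITGB2 fell by 0.94 (SE 0.0728, adjusted p = 3.4e-09, limma) and by 0.81 (SE 0.0728, adjusted p = 2.6e-08) on the log2 scale. These falls are to 130.2 ± 2.74 from 251.9 ± 28.3, and to 372.4 ± 29.7 from 651.7 ± 34.3 (SD, n = 4). The antisense gene ITGB2-AS1 shares 303 exon bases with it, 4.46% of the ITGB2 exons, and moved the same way, from 17.9 to 6.86 and from 98.5 to 54.9. Whether the counting used strand is not given in the sources used here, so reads in the shared bases cannot be told apart.

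The ratio of the LFA-1 chains within a library moved little with the inhibitor. The log2 ratio of ITGAL to ITGB2 was -0.66 ± 0.06 and -0.74 ± 0.16 at high MYC (control, inhibitor; SD, n = 4) and -0.96 ± 0.08 and -0.93 ± 0.25 at medium MYC. The inhibitor differences of -0.07 (p = 0.4) and 0.03 (p = 0.886) did not pass a two-sided exact permutation test of 4 against 4 libraries, whose smallest possible p is 0.0286. In controls the ratio was 0.30 lower on the log2 scale at medium MYC, with no overlap of the libraries (p = 0.0286 in the exact test, 0.0762 after Benjamini-Hochberg adjustment over the 8 ratio tests run).

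ITGA4, the alpha4 chain shared by 2 integrins (ENSG00000115232, chromosome 2, 181457202 to 181536187), had 2034, 2120, 2074 and 2066 in the high MYC controls and 1725, 1670, 1694 and 1665 with the inhibitor. At medium MYC the values were 3091, 3114, 2889 and 3050 against 2760, 2569, 2412 and 2649. The groups did not overlap at either level. The falls of 0.30 (SE 0.0357, adjusted p = 1.9e-06, limma) and 0.23 (SE 0.0357, adjusted p = 5.0e-05) on the log2 scale were smaller than those of LFA-1, and 12.5% and 15.8% of tested genes had a lower change.

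The beta partners of ITGA4 moved apart. ITGB7 (ENSG00000139626, chromosome 12, 53191318 to 53207307), part of whose promoter window is shown above, had 1156, 1185, 1127 and 1150 in the high MYC controls and 757.1, 744.3, 721.7 and 736.0 with the inhibitor. At medium MYC it had 1019, 953.7, 982.8 and 910.9 in controls and 602.3, 656.6, 625.6 and 653.4 with the inhibitor. No inhibitor library reached a control, and the falls were 0.64 (SE 0.0398, adjusted p = 1.3e-10, limma) and 0.61 (SE 0.0398, adjusted p = 1.8e-10) on the log2 scale. ITGB1, the widely expressed beta1 chain (ENSG00000150093, chromosome 10, 32900319 to 33005792), had 837.5, 878.2, 857.6 and 808.0 and, with the inhibitor, 936.7, 874.0, 863.1 and 892.9 at high MYC. Its medium MYC values were 769.8, 763.7, 755.3 and 803.4 in controls and 803.9, 769.9, 784.4 and 751.2 with the inhibitor. The libraries overlapped at both levels, and the changes of 0.08 (95% interval -0.004108 to 0.16, adjusted p = 0.156) and 0.01 (-0.07 to 0.09, adjusted p = 0.913) were not called. At medium MYC the sign of the ITGB1 change was not stable: it was -0.03 after a correction for GC content, and -0.003079 without control replicate 3 and -0.008317 without inhibitor replicate 1.

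The ratio of ITGB7 to ITGB1 normalized counts stood on opposite sides of 1 with and without the inhibitor. On the log2 scale it was 0.46, 0.43, 0.39 and 0.51 in the high MYC controls and -0.31, -0.23, -0.26 and -0.28 with the inhibitor. At medium MYC it was 0.40, 0.32, 0.38 and 0.18 in controls and -0.42, -0.23, -0.33 and -0.20 with the inhibitor. The differences of -0.72 and -0.61 each reached the smallest p of the exact permutation test (0.0286, or 0.0762 after adjustment over 8 tests, which misses 0.05). These counts are not divided by transcript length, so a ratio of 1 does not mean equal numbers of molecules. ZNF740, a zinc finger gene on the opposite strand, shares 1886 exon bases with ITGB7, 42.1% of the ITGB7 exons. ZNF740 was not lower with the inhibitor: it averaged 617.3 ± 26.7 and 658.7 ± 40.4 at high MYC and rose from 555.9 ± 20.4 to 677.7 ± 26.1 at medium MYC (SD, n = 4; log2 change 0.29, adjusted p = 0.00012, limma).

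**Figure D2:**
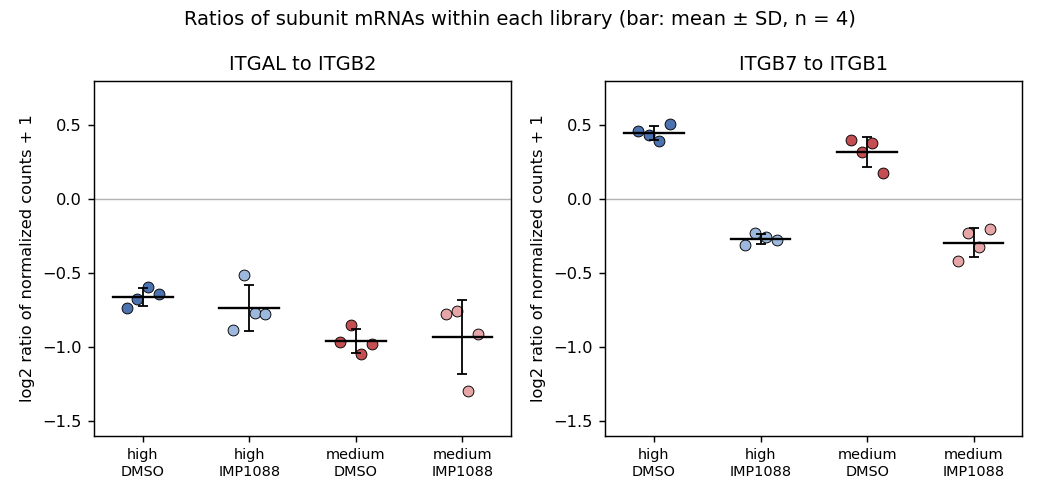
Log2 ratio of normalized counts + 1 (vertical axis) of ITGAL to ITGB2 (left) and ITGB7 to ITGB1 (right) within each library, by group; points are libraries, bars the mean ± SD of 4, and the grey line marks a ratio of 1. The ITGB7 to ITGB1 ratio is above 0 in all 8 controls and below 0 in all 8 inhibitor libraries. Counts are not divided by transcript length. Per kilobase of all annotated exons ITGB7 stayed above ITGB1 in every group. At medium MYC with the inhibitor the gap was narrow (lowest ITGB7 library 134.4, highest ITGB1 library 133.7).

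ICAM1, the LFA-1 ligand that inflammatory signals induce (ENSG00000090339, chromosome 19, 10270835 to 10286615), had 272.6, 244.8, 238.4 and 217.9 in the high MYC controls and 293.6, 277.3, 300.2 and 278.6 with the inhibitor. The inhibitor libraries were all higher, by 0.24 (SE 0.0519, adjusted p = 0.0013, limma) on the log2 scale. At medium MYC the controls gave 2854, 3030, 3115 and 2895 and the inhibitor libraries 3196, 3164, 3253 and 3067, which overlapped (0.09, adjusted p = 0.206). That change was called by edgeR on recovered reads (0.10, adjusted p = 0.037) and after GC correction (0.16, adjusted p = 0.0053). The antisense gene AC011511.5 shares 815 exon bases with ICAM1, 22.0% of its exons, and averaged 35.5 and 58.5 at high MYC but 14.1 and 17.1 at medium MYC. Its rise was called at high MYC (0.71, adjusted p = 0.0042, limma) and not at medium MYC (0.26, adjusted p = 0.305). Reads in the shared bases cannot be told apart here either.

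CD44 (ENSG00000026508, chromosome 11, 35138870 to 35232402) had 2277, 2270, 2404 and 2412 in the high MYC controls and 2848, 2769, 2717 and 2624 with the inhibitor. At medium MYC the controls had 11821, 12056, 11915 and 12194 and the inhibitor libraries 13462, 13095, 13204 and 13047. All inhibitor libraries were above the controls of their level, by 0.23 (SE 0.0286, adjusted p = 3.5e-06, limma) and 0.14 (SE 0.0286, adjusted p = 0.00088) on the log2 scale. The gene has many splice forms, and the deposited values are sums per gene, so no form can be told from another.

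CD58 (ENSG00000116815, chromosome 1, 116514535 to 116571039) was low at high MYC, with 24.9, 13.5, 23.2 and 21.2 in controls and 14.0, 15.5, 21.8 and 12.5 with the inhibitor, from 12 to 33 reads each. At medium MYC the values were 150.2, 157.5, 153.2 and 166.6 in controls and 166.6, 165.9, 182.8 and 181.5 with the inhibitor. The groups overlapped at both levels. The changes of -0.35 (95% interval -0.71 to 0.01, adjusted p = 0.141) and 0.15 (-0.21 to 0.51, adjusted p = 0.572) were not called, and the first was called without control replicate 2 (-0.53, adjusted p = 0.014) or inhibitor replicate 3 (-0.50, adjusted p = 0.031) of high MYC.

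ICAM3 (ENSG00000076662, chromosome 19, 10333776 to 10339823), an ICAM of resting leukocytes, was near the detection floor and was not tested. It had 0 reads in all 4 high MYC controls, each of which allows up to 3 reads, 1 to 4 with the inhibitor there, 4 to 8 in the medium MYC controls and 0 to 6 with the inhibitor. Exons of the antisense gene AC114271.1 cover 71.2% of the ICAM3 exons, and that gene averaged between 45.3 and 62.1 in the groups.

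No member's inhibitor response was called different between the MYC levels in the limma fit, where 8.63% of all tested genes were, and edgeR and DESeq2 on recovered reads also called 0 of 8. At an unadjusted p under 0.05 there was 1, CD44, whose response was 0.09 higher at high MYC (95% interval 0.004527 to 0.17, adjusted p = 0.204). The widest interval was that of CD58, -0.50 (-1.004 to 0.003427). The count rose to 1 without high MYC control replicate 1, where ICAM1 was called (0.21, adjusted p = 0.0437), and without high MYC control replicate 2, where CD58 was (-0.68, adjusted p = 0.0465).

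**Figure D3:**
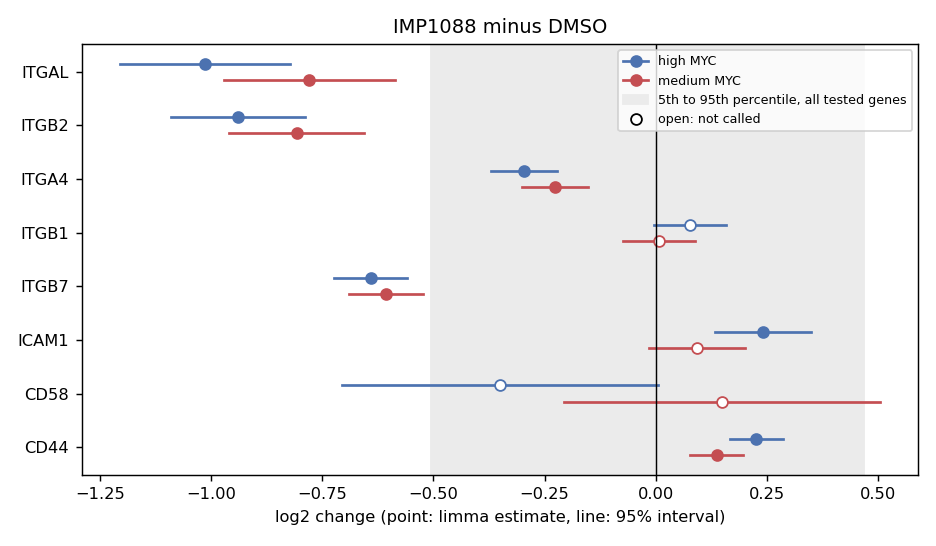
Log2 change with IMP1088 (horizontal axis; points, limma estimate, lines, 95% interval) of the 8 tested members at high and medium MYC; filled points were called and the grey band spans the 5th to 95th percentile of all tested genes at high MYC. ITGAL, ITGB2 and ITGB7 lie left of the band at both levels.

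Between the MYC levels, all 8 tested members were called in controls, 6 higher and 2 lower at medium MYC. Most genes were called in this comparison: 76.2% of all tested genes, 38.9% higher and 37.3% lower, so a call by itself sets no member apart. The median change of the members was 1.22 on the log2 scale, beside 0.02 over all tested genes. ICAM1, CD58 and CD44 rose furthest.

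ICAM1 averaged 243.5 ± 22.6 in the high MYC controls and 2973 ± 120 in the medium MYC controls (SD, n = 4), a log2 change of 3.61 (SE 0.0519, adjusted p = 4.2e-23, limma), and 97.8% of tested genes had a lower change. CD58 went from 20.7 ± 5.03 to 156.9 ± 7.14, a change of 2.90 (SE 0.171, adjusted p = 1.1e-12). CD44 went from 2341 ± 77.8 to 11997 ± 163, a change of 2.36 (SE 0.0286, adjusted p = 2.9e-24). For these 3 genes the lowest medium MYC library was several times the highest high MYC library.

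The LFA-1 chains and ITGA4 rose less. ITGAL went from 158.7 ± 14.9 to 334.1 ± 15.8 (log2 change 1.07, adjusted p = 6.6e-10, limma) and ITGB2 from 251.9 ± 28.3 to 651.7 ± 34.3 (1.37, adjusted p = 1.6e-13). ITGA4 went from 2074 ± 35.8 to 3036 ± 101 (0.55, adjusted p = 5.7e-12). With the inhibitor at medium MYC, every ITGB2 library lay above all high MYC controls, while 1 ITGAL library (168.2) lay within their range; these 2 groups were not tested against each other.

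Both beta partners of ITGA4 were lower at medium MYC. ITGB7 fell by 0.26 (SE 0.0398, adjusted p = 5.3e-06, limma) on the log2 scale, from 1154 ± 23.8 to 966.6 ± 45.8, and ITGB1 by 0.13 (SE 0.0389, adjusted p = 0.0052), from 845.3 ± 29.9 to 773.0 ± 21.1. The control libraries of the 2 levels did not overlap for any of the 8 members, as for 69.2% of all tested genes. The ITGB7 to ITGB1 ratio was 0.13 lower on the log2 scale at medium MYC, and the libraries overlapped (exact permutation p = 0.0571, adjusted p = 0.114).

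Among the inhibitor libraries the same 6 members were higher and the same 2 lower at medium MYC, where 77.5% of all tested genes were called, 39.7% higher and 37.8% lower. Log2 changes were 3.46 for ICAM1, 3.40 for CD58, 2.27 for CD44, 1.51 for ITGB2, 1.31 for ITGAL and 0.62 for ITGA4, and -0.22 for ITGB7 and -0.20 for ITGB1. Their adjusted p-values in limma were at most 9.7e-05. Groups did not overlap for any of the 8, as for 72.6% of all tested genes. These libraries are separate from the controls, but the difference between the 2 MYC comparisons is by construction the difference in response given above.

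**Figure D4:**
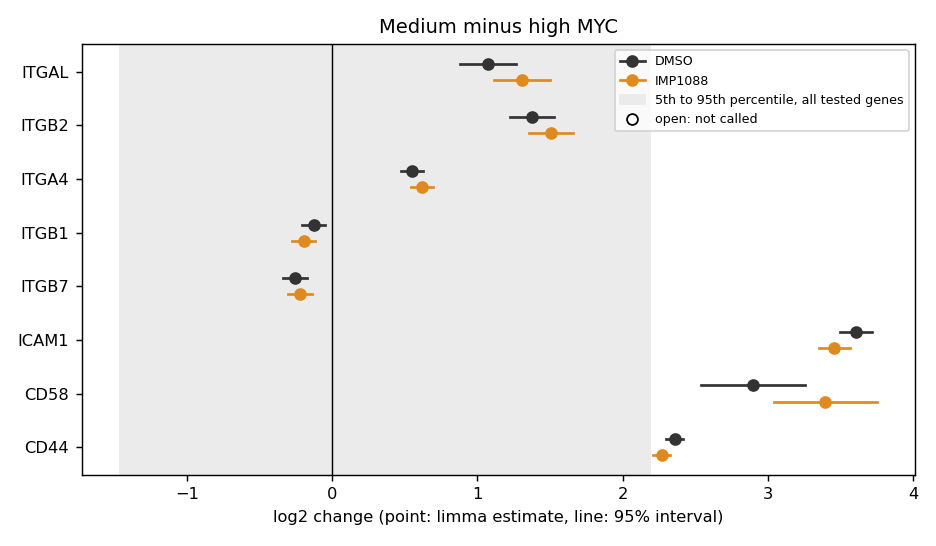
Log2 change from high to medium MYC (horizontal axis; points, limma estimate, lines, 95% interval) of the 8 tested members in DMSO and in IMP1088 libraries; all points were called, and the grey band spans the 5th to 95th percentile of all tested genes with IMP1088. ICAM1, CD58 and CD44 lie right of the band and ITGB1 and ITGB7 below 0.

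Levels of different members were compared as normalized counts per kilobase of the union of their GENCODE 29 exons. That union holds the exons of all annotated forms (10004 bases for CD44, 7901 for ITGA4 and 4481 for ITGB7). Which forms were present is not known, so the order can depend on this length. In high MYC controls the order was ITGA4 (262.4 ± 4.53), ITGB7 (257.6 ± 5.32), CD44 (234.0 ± 7.78), ITGB1 (140.6 ± 4.97), ICAM1 (65.7 ± 6.09), ITGB2 (37.1 ± 4.17), ITGAL (24.5 ± 2.30), CD58 (11.6 ± 2.82) and ICAM3 (0); the libraries of ITGA4 and ITGB7 overlapped. In medium MYC controls CD44 (1199 ± 16.3 per kilobase) and ICAM1 (802.3 ± 32.5) led, followed by ITGA4 (384.2 ± 12.8), ITGB7 (215.7 ± 10.2), ITGB1 (128.6 ± 3.51), ITGB2 (95.9 ± 5.04), CD58 (88.0 ± 4.01), ITGAL (51.6 ± 2.45) and ICAM3 (1.73 ± 0.43), with ITGB2 and CD58 overlapping. With the inhibitor at high MYC, CD44 (273.8 ± 9.39 per kilobase) was first and ITGA4 (213.7 ± 3.44) the next, while ITGAL (12.1 ± 1.35) and CD58 (8.95 ± 2.30) overlapped. At medium MYC with the inhibitor CD58 (97.7 ± 5.16 per kilobase) stood above ITGB2 (54.8 ± 4.37), without overlap. In every group ITGB2 mRNA was above ITGAL mRNA per kilobase.

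Genes whose log2 levels followed each member closely over the 16 libraries, among 10843 others with a mean of at least 50, are given as a description, since all libraries share the same 4 groups. ICAM1 went with NFKBIA, an inhibitor of NF-kB that NF-kB itself induces (r = 0.999), and SLAMF6 (0.998), and CD44 with NFKBIA (0.999) and the chemokine receptor CCR7 (0.999). CD58 went with TMBIM6 (0.994) and ARHGEF40 (0.993). ITGAL went with PGPEP1 (0.987), and ITGB2 with HTT (0.995) and ARHGAP30 (0.994). ITGA4 went with CLSPN (0.992) and LSM14B (0.989), and ITGB7 with PLCG2, the phospholipase of B cell receptor signalling (0.977), and TMC8 (0.970). The closest to ITGB1 were RP9 (0.944) and ZNF252P (0.936).

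Of 21 other integrin subunits, 9 had a mean of at least 10. With the inhibitor 1 rose and 1 fell at high MYC, and 2 rose at medium MYC, where over all tested genes 10.5% rose and 16.3% fell at high and 11.7% and 14.6% at medium MYC. The count at high MYC was 1 without control replicate 1 or 3 or inhibitor replicate 4. That at medium MYC was 1 without control replicate 1 or inhibitor replicate 3. By edgeR and by DESeq2 the count at medium MYC was 4, with 2 higher and 2 lower. ITGAM, the alpha chain of the macrophage integrin that also pairs with ITGB2, averaged 78.7 in high MYC controls and fell by 0.47 on the log2 scale (adjusted p = 0.0015, limma), while at medium MYC its 220.8 and 183.2 were not called apart. In controls 8 of the 9 were higher at medium MYC, beside 38.9% of all tested genes, ITGAM by 1.49 and the fibronectin receptor chain ITGA5 by 1.27 on the log2 scale. The median over the 9 in this comparison was 1.02.

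The inside-out signalling genes, which act on the switch of integrins to their binding shape, had 24 of 29 tested. The list also holds genes that oppose the switch, among them SIPA1 and RAP1GAP2 (log2 change -0.66 at high MYC). Counts of rises and falls therefore give no direction for the switch. The inhibitor raised 1 and lowered 9 at high MYC and raised 1 and lowered 7 at medium MYC, with medians of -0.11 and -0.05 on the log2 scale; of all tested genes, 10.5% and 11.7% were higher and 16.3% and 14.6% lower. SIPA1, which turns off the GTPase RAP1, fell by 0.88 (adjusted p = 2.0e-08, limma) and 0.66 (adjusted p = 1.0e-06), from 634.7 to 341.7 and from 1297 to 816.9. TLN1, the talin that binds beta chain tails, fell by 0.64 at medium MYC, from 15005 to 9652, and by 0.23 at high MYC, and this difference of 0.41 was itself called (adjusted p = 1.2e-07). STK4, a kinase downstream of RAP1, rose by 0.10 and 0.20. At medium MYC 13 of the 24 were higher and 4 lower in controls, beside 38.9% and 37.3% of all tested genes. RASGRP3, which activates RAP1 and RAS, rose by 1.93, from 352.0 to 1346, whereas RASGRP2, its relative, fell by 1.11, from 893.4 to 415.0.

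The genes that link integrins to actin had the largest share of calls of the 5 lists in both inhibitor comparisons. As the lists were chosen with earlier results of these data known, this order is a description and not a test. Of 27 tested of 29, the inhibitor lowered 19 and raised 2 at high MYC and lowered 21 and raised 0 at medium MYC, beside the 16.3% and 14.6% of all tested genes that fell. Their medians were -0.27 and -0.35 on the log2 scale. ZYX (zyxin, a focal adhesion protein) fell by 1.54 (adjusted p = 6.0e-05, limma) at high MYC, from 35.01 to 12.2, and fell by 1.57 (adjusted p = 4.1e-05) at medium MYC, from 1865 to 624.9. VASP, an actin filament elongation factor, fell by 0.96 at high MYC, from 366.2 to 187.4. At medium MYC VASP averaged 2390 in controls and 1375 with the inhibitor. LIMA1, an actin crosslinker, fell by 1.63 at medium MYC, from 1997 to 647.1, and by 0.85 at high MYC. RSU1, a partner of the ILK complex, fell from 985.4 to 522.3 at medium MYC and from 660.6 to 611.6 at high MYC. The response was called different between MYC levels for 11 of the 27, with 8 lower at medium MYC relative to high MYC and 3 the other way, where 8.63% of all tested genes were called; without a mean trend in limma 7 of the 27 were. In controls 20 were higher and 5 lower at medium MYC, beside 38.9% and 37.3% of all tested genes. ZYX rose by 5.74 on the log2 scale, whereas the actin regulators ENAH and EVL fell by 1.03 and 0.43.

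**Figure D5:**
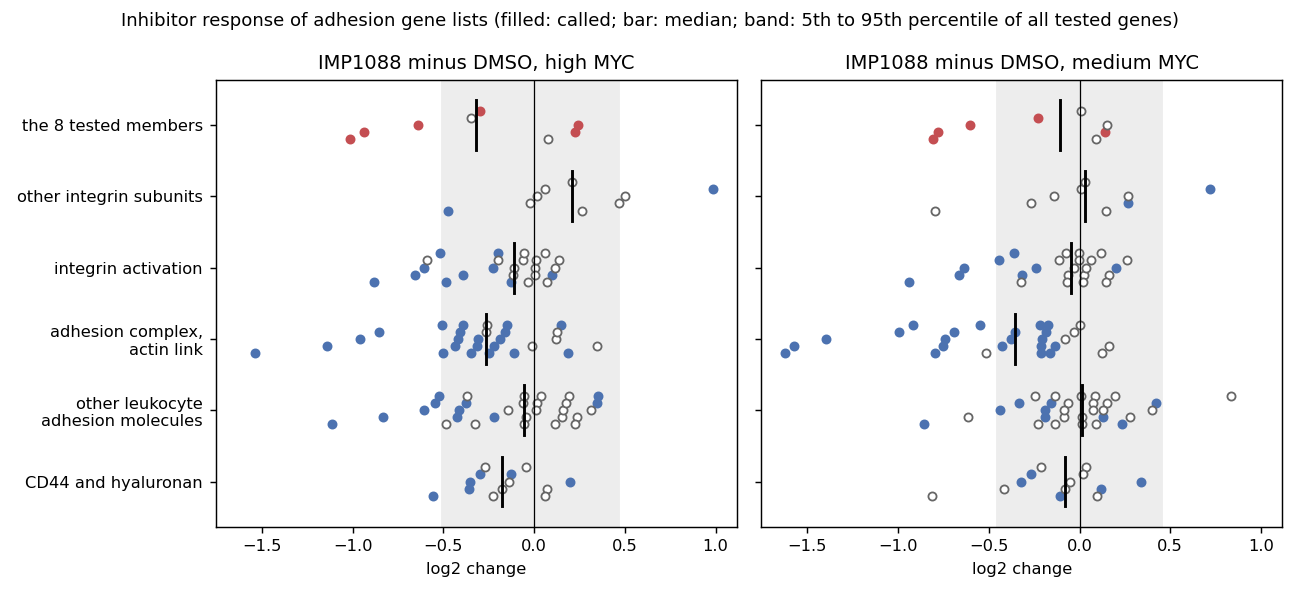
Log2 change with IMP1088 (horizontal axis) of each tested gene of the members and of the 5 lists at high (left) and medium MYC (right); filled points were called, bars are medians and the grey band spans the 5th to 95th percentile of all tested genes. In the adhesion complex and actin list 19 and 21 of 27 genes were lower.

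Other leukocyte adhesion molecules (30 of 36 tested) moved both ways. With the inhibitor 2 rose and 9 fell at high MYC, and 3 rose and 6 fell at medium MYC, with medians of -0.06 and 0.01 on the log2 scale. Of all tested genes 10.5% rose and 16.3% fell at high and 11.7% and 14.6% at medium MYC. The 9 calls at medium MYC were 14 with quantile normalization or with only the groups compared, and 15 by edgeR. The tetraspanin CD82 fell at high MYC from 169.2 to 94.9 (log2 change -0.84, adjusted p = 1.5e-09, limma), while at medium MYC it was 1509 and 1420. The B cell sialic acid receptor CD22 fell by 0.61 at high MYC, from 2023 to 1329. At medium MYC CD22 fell by 0.33, from 4923 to 3908. CD9, another tetraspanin, rose by 0.35 at high MYC, from 335.9 to 430.3, and by 0.24 at medium MYC, from 139.0 to 163.8. CD99, a protein of leukocyte passage through vessels, fell by 0.44 at medium MYC, from 708.4 to 521.1. At high MYC CD99 averaged 623.6 in controls and 479.8 with the inhibitor. In controls 22 were higher at medium MYC and 6 lower, beside 38.9% and 37.3% of all tested genes. SLAMF7, a receptor that binds its own kind on other cells, averaged 10.7 in the high MYC and 247.4 in the medium MYC controls.

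Of the CD44 and hyaluronan genes, 13 of 21 were tested. The inhibitor raised 1 and lowered 5 at high MYC, and raised 2 and lowered 3 at medium MYC, beside 10.5% and 16.3%, and 11.7% and 14.6%, of all tested genes. With only the groups compared in the fit, the 6 calls at high MYC were 3. MSN, the moesin that ties CD44 to actin, fell by 0.36 and 0.26 on the log2 scale (adjusted p = 1.0e-09 and 6.5e-08, limma), while EZR, the related ezrin, rose by 0.20 at high MYC. CEMIP2, a membrane protein described as a cell surface hyaluronidase, fell by 0.56 and 0.32. SRGN, the proteoglycan serglycin, rose by 0.34 at medium MYC, from 3823 to 4832. In controls 8 of the 13 were higher and 4 lower at medium MYC (38.9% and 37.3% of all tested genes), with SRGN at 220.6 and 3823 and HYAL2, another hyaluronidase, at 147.5 and 57.1. Exons of 19 of the 42 list genes named by rule overlap those of another gene, among them TLN1, ZYX, RASGRP3, CD82, CD22, EZR, ITGA5, EVL and HYAL2, so their values may hold reads of the neighbour.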

How the data were processed

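The authors deposited 1 table of expression signal for 16 libraries, DESeq2-style normalized counts; the submitters' processing notes name STAR 2.5.2a, RSEM 1.2.31, DESeq2 1.16.1 and GRCh38, while annotation and strand are not given in the sources used here. All values were whole multiples of 1 library step (100% whole within 1e-06), so reads assigned to genes were recovered. As RSEM is named, these may be rounded estimates. Symbols matched 56948 of 58051 identifiers, and positions are from GENCODE 29.

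limma 3.58.1 (R 4.3.3) was fitted to log2(value + 1) of 13765 genes with a mean of at least 10, with 4 group means, a mean trend and Benjamini-Hochberg adjustment. Fits were tested on simulated counts. Ratios used exact permutation tests. The ICAM1 to ICAM3 ratio was not run because ICAM3 had at most 8 reads, so adjustment covered 8 tests in place of 12. Alternatives included edgeR 4.0.16 and DESeq2 1.42.0 on recovered reads; edgeR called 3703 genes for the inhibitor at high and 3858 at medium MYC. Named list genes were up to 2 higher and 2 lower calls per list and comparison with a mean of at least 50; those reported are a part, and some genes the rules select are not reported here. Members and lists were chosen with earlier results of these data known. Replicate pairs differed beyond sampling noise (chi-square per degree of freedom 1.71 to 10.8).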

Additional observations from a re-analysis of the deposited data

Results flagged for a closer look

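No value of a member, of MYC, NMT1 or NMT2, or of a ratio in any single library stood apart from the other 3 of its group by Dixon's test at 95% (55 groups of 4). Of the list genes named by rule, 18 had inhibitor responses that differed between MYC levels by limma's test of the difference. The rule itself took top calls of that comparison among others, so this number is fixed in part by the choice of genes and nothing is read from it. Values below are the response at high MYC minus that at medium MYC, on the log2 scale.

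Positive differences, where the response at medium MYC was the lower, were 0.81 for BCAR1, 0.80 for RSU1, 0.80 for MCAM, 0.77 for LIMA1, 0.41 for TLN1, 0.31 for EZR, 0.23 for CRK, 0.22 for CRKL and 0.21 for APBB1IP. RSU1 fell by 0.11 at high and 0.92 at medium MYC. MCAM, a melanoma cell adhesion molecule, changed by -0.06 at high MYC, which was not called (adjusted p = 0.673, limma), and fell by 0.86 at medium MYC. EZR rose by 0.20 at high MYC and fell by 0.11 at medium MYC, with calls in both directions.

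Negative differences were -0.75 for CD82, -0.66 for RASGRP1, -0.64 for SRGN, -0.63 for SLAMF1, -0.59 for RAP1GAP2, -0.51 for NEDD9, -0.29 for PXN, -0.27 for CD22 and -0.23 for CEMIP2. SRGN fell by 0.30 at high MYC and rose by 0.34 at medium MYC. NEDD9, an adhesion scaffold, fell by 0.50 at high MYC and changed by 0.004 at medium MYC (adjusted p = 0.977, limma).

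The differences of APBB1IP, BCAR1, CEMIP2, CRK and PXN lost their calls when single libraries were left out: 9, 12, 9, 12 and 11 of the 16 libraries did so, with adjusted p up to 0.0917, 0.0918, 0.0860, 0.0996 and 0.110 (limma). All 5 were also lost with no filter and with no mean trend (adjusted p from 0.0734 to 0.113), and those of PXN and CEMIP2 with the replicate block (0.0584 and 0.0720) and the block within MYC level (0.0839 and 0.100).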

How the results depend on the processing

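Of 955 recomputed member changes, 943 kept their direction and side of the threshold, 8 passed it newly and 4, all of ITGB1 at medium MYC (0.01 in the main result), reversed: -0.029 with GC correction, with or without the replicate block, -0.003079 without control replicate 3 and -0.008317 without inhibitor replicate 1, within a range up to 0.0266 when a library was left out. Newly called were ITGB1 at high MYC with quantile normalization (0.11, adjusted p = 0.043, limma), ICAM1 at medium MYC by edgeR and with GC correction, with or without the block, and the ICAM1 and CD58 results without single libraries given above. The cause was not tested. Counts of members called kept their value within 1.5 times in 118 of 120 alternatives; the difference in response ranged from 0 to 1 when a library was left out. CD58 was not tested with a filter at a mean of 100.

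Leaving out a library moved the ITGAL to ITGB2 difference between -0.15 and -0.02 (high MYC), -0.032 and 0.15 (medium MYC), -0.34 and -0.27 (MYC levels, controls) and -0.26 and -0.08 (with inhibitor), and that of ITGB7 to ITGB1 between -0.74 and -0.70, -0.66 and -0.57, -0.16 and -0.082, and -0.055 and 0.0167. The replicate numbers did not pair the libraries: mean correlations of same-numbered deviations were -0.07, -0.02, 0.02 and -0.02 over the 4 comparisons, and 0, 1, 1 and 1 of 4 libraries correlated best with their own number. With the replicate block the ratio differences of -0.30 (ITGAL to ITGB2, controls), -0.72 and -0.61 (ITGB7 to ITGB1) had an exact sign-flip p of 0.125, the smallest possible, which is void as a test; the block changed no count of members called, but it ended the calls of PXN and CEMIP2 for the difference in response.

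List counts stayed within 1.5 times in 579 of 600 added alternatives. Other integrin subunits at high MYC (2 called) had 1 with quantile normalization, with no filter and with the filter at 100, and 1 to 3 without a library (1 without control replicate 1 or 3 or inhibitor replicate 4). At medium MYC (2) they had 4 with a pseudocount of 10, in the groups compared only, by edgeR and by DESeq2. Each time 2 of the 4 were higher and 2 lower. Without a library they had 1 to 2 (1 without control replicate 1 or inhibitor replicate 3). Their difference in response (0) was 1 with a pseudocount of 10 and 0 to 1 without a library (1 without high MYC inhibitor replicate 1), and between MYC levels (8 in each) the filter at 100 left 4. The actin list's difference in response (11) was 7 with no mean trend. Other adhesion molecules at medium MYC (9) had 14 with quantile normalization, 14 in the groups compared only and 15 by edgeR, and the CD44 list at high MYC (6) had 3 in the groups compared only. The GC correction and the alternatives for lists were chosen after seeing the data. Depth limits CD58 at high MYC and ICAM3.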
